A study of Mus musculus with 6 samples.

Results

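The thyroid, retinoid and orphan nuclear receptors described here are 10 of the 18193 genes that have a probe set of their own on the array: the thyroid hormone receptors Thra and Thrb, the retinoid X receptors Rxra, Rxrb and Rxrg, the ROR orphan receptors Rora and Rorb, the orphan repressor Nr2e1, and the COUP transcription factors Nr2f1 and Nr2f2. Every probe set of the array that maps to one of these genes alone in the platform annotation was taken, which gave 30 of the 45037 probe sets that are not controls. A probe set is a group of short array probes for one transcript, and a gene can have several. Of these 30 probe sets, 23 had a mean log2 signal over 7 in at least one genotype and were kept by the study's filter. They cover 9 genes, and the single Thrb probe set was below the filter.

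Nuclear receptors are transcription factors that bind DNA directly, and many of them switch between repressing and activating genes when a small lipid-soluble ligand binds. Thyroid hormone receptors work as partners of retinoid X receptors, recruit corepressors without hormone and coactivators with it, and in the developing retina Thrb and Rxrg are known for setting the type of opsin that cones make. Rora and Rorb also act in photoreceptor genes and early neurogenesis, Nr2e1 keeps retinal and neural progenitors dividing, and Nr2f1 and Nr2f2 pattern the eye along its dorsoventral axis and between optic stalk and retina.

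Retinas were taken from 6 mouse embryos, 3 WT and 3 OC1-KO, numbered 1 to 3 within each genotype, and each embryo had its own array. The age is E14 by the samples' labels, while the series' design text has E14.5. OC1-KO embryos were deficient in Onecut1 (OC1), a cut-homeodomain transcription factor of early retinal cells, in the whole animal and not in one retinal cell type. WT and OC1-KO embryos were littermates on a mixed strain background, since the line was made with R1 ES cells in Swiss mice and then bred to C57Bl/6, and neither genotype was given a treatment. The question was whether loss of OC1 altered gene expression in the embryonic retina, and here it is put to the nuclear receptors. The number also grouped the arrays: WT and OC1-KO arrays of one number deviated together from their genotype means, so every receptor is given by genotype and by embryo number. What the number marks is not stated in the labels.

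Onecut1 itself gave log2 signals of 9.25, 8.76 and 9.00 in WT and 9.02, 8.31 and 9.67 in OC1-KO. Where this probe set lies relative to the deleted part is not given, so its level checks nothing about the genotype labels. Its relative Onecut2 was lower in OC1-KO in 3 of 3 pairs of like number, by a mean of 0.32 (SE 0.21), with an unadjusted limma p of 0.165. By its markers the tissue was retina: 7 of 7 progenitor genes and 6 of 6 ganglion cell genes with a probe set were above the filter, with summed signals of 64530 to 95390 and 65270 to 90150. Markers of neighbouring tissue moved with the number. The summed signal of 7 lens genes was 151 to 287 on arrays 1 and 2 but 9619 to 20450 on the arrays numbered 3, where Cryba1 was the brightest of them. In the same way 5 red blood cell genes summed to 44.1 to 714 on arrays 1 and 2 and to 16450 to 23830 on arrays 3, 7 genes of periocular mesenchyme to 440 to 681 and 2405 to 2851, and 8 genes of pigment epithelium to 323 to 779 and 921 to 2198. The pigment epithelium sum was also higher in OC1-KO in each pair (480 and 676, 323 and 779, 921 and 2198), though the genotypes overlapped. Its genes Pmel and Mitf were higher in 3 of 3 pairs, by means of 1.40 (SE 0.70) and 0.72 (SE 0.42). Of all kept probe sets, 10.3% were higher in 3 of 3 pairs. For Pmel and Mitf the unadjusted limma p was 0.0852 and 0.136. With the replicate block it was 0.00258 and 0.00972, where 4.37% of all kept probe sets were under 0.05. The adjusted p with the block was 0.999 for both. No other gene of the list was higher in each pair. Dct was lower in OC1-KO in pair 1 and Ttr in pair 3, both by 0.12. Tyr, Tyrp1, Mlana and Rpe65 were below the filter, and Tyrp1 had the only lower mean, by 0.03. Of these lists 2 lens, 1 red blood cell, 1 mesenchyme and 4 pigment genes passed the filter. The defining lens gene Cryaa had a log2 signal of 2.26 to 4.09 on the other 4 arrays and of 11.59 and 10.49 on the arrays numbered 3. The part of these tissues in the receptor values was not tested, and in whole retinas fewer cells of a type cannot be told apart from less RNA per cell.

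Promoter sequence was available from RefSeq for 9 of the 10 genes, as 15 windows on GRCm38.p6 that run from 250 bases before a transcription start to 50 bases after it. The windows were searched on both strands for ATTGAT, read as ATCAAT on the other strand, the core of the site that Onecut factors bind, and for AGGTCA, read as TGACCT on the other strand, the half-site that many nuclear receptors bind. The letters of both motifs do not overlap in any of these windows. ATTGAT was present in 2 of the 15 windows, against 7.54% of 32851 promoters of the same length, and AGGTCA in 3 of the 15, against 16.3%. The following 3 windows hold these letters and are shown with the match in capitals. They were chosen for Nr2f2, which had the largest mean difference between genotypes among the kept receptor probe sets, and for Rxrg and Thrb. These receptors are known for a part in cones, but which of their windows is used in cones is not given.
Nr2f2 promoter, chr7:70366697-70366996, minus strand: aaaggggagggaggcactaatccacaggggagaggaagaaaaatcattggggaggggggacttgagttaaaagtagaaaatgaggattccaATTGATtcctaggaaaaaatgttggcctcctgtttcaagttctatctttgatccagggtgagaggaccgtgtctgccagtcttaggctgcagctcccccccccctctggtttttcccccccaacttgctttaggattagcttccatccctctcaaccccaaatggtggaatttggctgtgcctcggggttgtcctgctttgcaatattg
Rxrg promoter, chr1:167598112-167598411, plus strand: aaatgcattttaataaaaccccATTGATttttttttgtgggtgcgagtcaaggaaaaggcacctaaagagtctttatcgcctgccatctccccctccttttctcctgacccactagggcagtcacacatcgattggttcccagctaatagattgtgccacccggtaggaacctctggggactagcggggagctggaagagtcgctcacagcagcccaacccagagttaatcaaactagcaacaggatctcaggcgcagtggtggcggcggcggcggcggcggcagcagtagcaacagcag
Thrb promoter, chr14:17660710-17661009, plus strand: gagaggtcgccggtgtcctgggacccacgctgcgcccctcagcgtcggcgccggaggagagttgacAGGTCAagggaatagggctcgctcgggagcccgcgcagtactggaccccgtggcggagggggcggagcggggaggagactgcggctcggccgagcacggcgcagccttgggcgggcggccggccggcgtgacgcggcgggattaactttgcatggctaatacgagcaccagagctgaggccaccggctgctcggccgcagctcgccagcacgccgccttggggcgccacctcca
The match lies 159 bases before the start in Nr2f2 and 228 bases before it in Rxrg, both for the Onecut core, and 184 bases before it in Thrb for the half-site. The other half-site matches were in a second Rxrg window, 88 bases before its start, and in one Rxra window, 87 and 48 bases before its start. The other Thrb window, chr14:17981394-17981693, held no match to either motif. A match describes the letters only, and no binding was measured.

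Between OC1-KO and WT, none of the 23 kept receptor probe sets passed the test. Counts of 0 were found at an adjusted p under 0.05 by limma, against 0% of all 20888 kept probe sets, and also at an unadjusted p under 0.05, against 1.01%. The methods' t-test gave 0 as well, and the genotypes overlapped in each of the 23, so that 0 were separated, against 3.56% of all. The mean was lower in OC1-KO for 19 probe sets and higher for 4, where 52.3% of all kept probe sets were lower. The median difference, OC1-KO minus WT on the log2 scale, was -0.13 over the receptors and -0.01 over all kept probe sets, and the single differences ran from -0.36 to 0.11. The median SE of a difference was 0.23 for the receptors and 0.20 for all probe sets, so most of these differences were smaller than their own error. The number of lower probe sets was 14 when WT embryo 3 was left out and 20 when WT embryo 2 was left out.

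**Figure D1:**
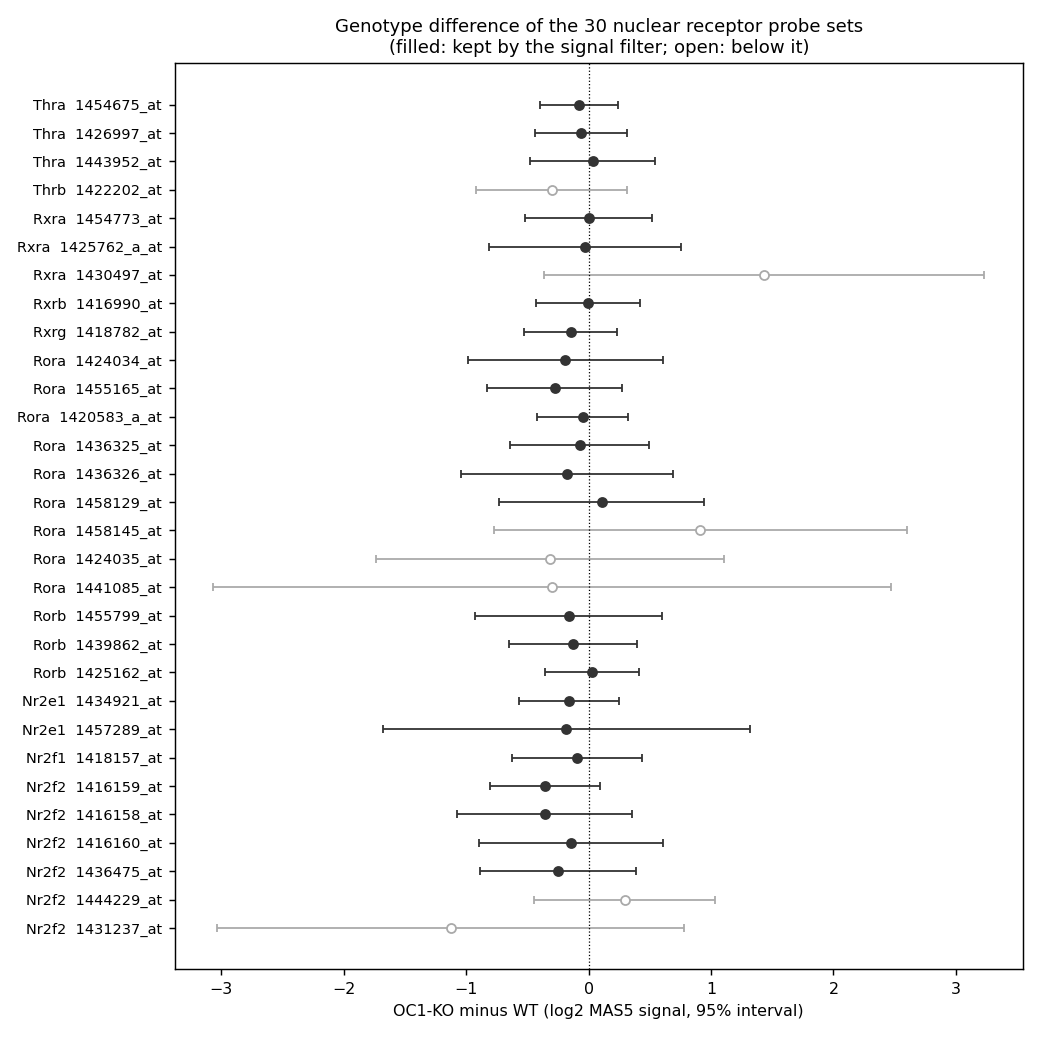
Difference between OC1-KO and WT for each of the 30 receptor probe sets, in log2 MAS5 signal, with the 95% interval of limma. Filled points were kept by the filter and open points were below it. Each interval covers 0, and the filled points lie between -0.36 and 0.11.

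Within pairs of like number, 5 of the 23 probe sets were lower in OC1-KO in 3 of 3 pairs, against 13.1% of all kept probe sets, and 0 were higher in 3 of 3, against 10.3%. The 5 were Rora 1424034_at and 1455165_at, Rorb 1439862_at, and Nr2f2 1416159_at and 1416158_at. With the embryo number as a replicate block, 1 probe set had an unadjusted limma p under 0.05, against 4.37% of all, and 0 an adjusted one. That probe set was Nr2f2 1416158_at, with an unadjusted limma p of 0.04999 in that fit and an adjusted p of 0.999. For the 5, in the order above, the SE with the block was 0.11, 0.13, 0.11, 0.16 and 0.14. Their unadjusted limma p in that fit was 0.151, 0.0797, 0.280, 0.0704 and 0.04999, with an adjusted p of 0.999 for each.

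**Figure D2:**
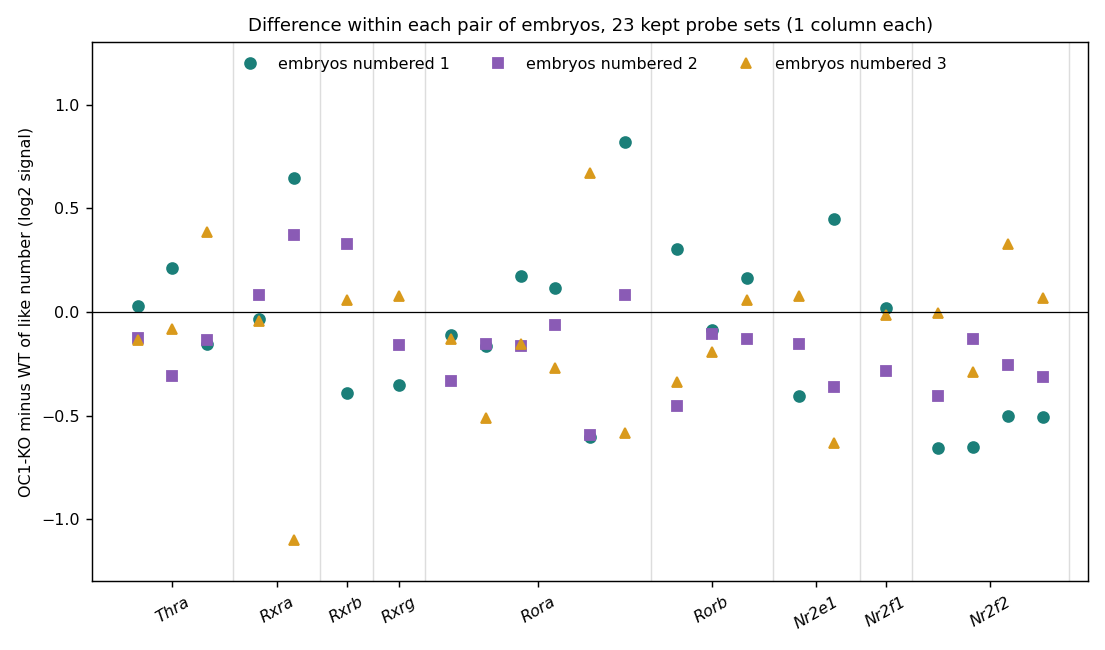
OC1-KO minus WT within each pair of embryos of like number, in log2 MAS5 signal, for the 23 kept probe sets in 1 column each, grouped by gene. Circles, squares and triangles are the pairs numbered 1, 2 and 3. All 3 points lie below 0 in 5 columns, in Rora, Rorb and Nr2f2, and all 3 above 0 in none.

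Among the thyroid hormone receptors, Thra, which encodes the receptor found in most cells, had 3 probe sets and all were kept. The brightest, 1454675_at, read 11.16, 11.32 and 11.32 in WT and 11.19, 11.19 and 11.18 in OC1-KO. The 6 arrays spanned 0.15, the narrowest range of any receptor probe set, and the genotypes overlapped. The difference was -0.08 (SE 0.14) with a 95% interval of -0.40 to 0.24, and the other probe sets differed by -0.06 (1426997_at) and 0.03 (1443952_at). On 1443952_at the value was 7.89 in WT embryo 3 and 8.27 to 8.61 on the other 5 arrays.

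Thrb encodes the receptor of which an isoform is needed for medium-wavelength opsin in mouse cones. Its probe set 1422202_at was below the filter, at 6.42, 6.01 and 6.60 in WT and 5.78, 6.08 and 6.25 in OC1-KO. The means were 6.34 ± 0.30 and 6.04 ± 0.24 (SD, n = 3), and the highest OC1-KO value lay above the lowest WT value. The difference of -0.30 (SE 0.25) had a 95% interval of -0.92 to 0.32, and the two-sided exact permutation test gave p = 0.3, where the smallest value that 3 against 3 arrays allow is 0.1. The pairs differed by -0.64, 0.08 and -0.35.

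Rxra, Rxrb and Rxrg encode the shared partners of thyroid hormone, retinoic acid and several orphan receptors. Rxra 1454773_at read 8.65, 8.48 and 9.08 in WT and 8.61, 8.56 and 9.03 in OC1-KO, and the genotype means were equal to 2 decimals, at 8.74 and 8.74. The arrays of each number were within 0.08 of each other, and 98.5% of the variance of this probe set lay between embryo numbers. Its second kept probe set, 1425762_a_at, did not follow it: it read 6.95, 7.30 and 7.76 in WT and 7.59, 7.67 and 6.66 in OC1-KO. OC1-KO was thus 0.65 and 0.37 higher in the pairs numbered 1 and 2 and 1.10 lower in pair 3, which left a mean difference of -0.03 (SE 0.33). Without the arrays numbered 3 the difference of 1425762_a_at was 0.51, at an unadjusted limma p of 0.0496 and an adjusted p of 1.00. The third probe set of Rxra, 1430497_at, was far below the filter, with a difference of 1.44 (SE 0.72).

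Rxrb 1416990_at read 10.08, 9.80 and 10.02 in WT and 9.69, 10.13 and 10.08 in OC1-KO, with a difference of -0.00 (SE 0.18) and a 95% interval of -0.43 to 0.42. The sign of that difference turned to 0.00386 after quantile normalization and to 0.0104 after median centring. Rxrg, which is known for its restriction to cones and a subset of ganglion cells in the retina, gave 8.73, 8.63 and 8.69 in WT and 8.38, 8.47 and 8.77 in OC1-KO on 1418782_at. OC1-KO embryos 1 and 2 lay below every WT embryo and OC1-KO embryo 3 above them, and the difference was -0.15 (SE 0.16, 95% interval -0.52 to 0.23).

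Rora encodes an orphan receptor that acts in cone opsin genes and in the cerebellum, and it had the most probe sets of the 10 genes, 9, of which 6 were kept. The brightest, 1424034_at, read 9.56, 9.46 and 8.62 in WT and 9.45, 9.12 and 8.49 in OC1-KO. Both arrays numbered 3 were the lowest of the 6, and the difference between genotypes was -0.19 (SE 0.34). OC1-KO was lower by 0.11, 0.33 and 0.13 within the pairs. Probe set 1455165_at also had its lowest values on the arrays numbered 3, with 9.08, 9.09 and 8.75 in WT and 8.92, 8.93 and 8.24 in OC1-KO, a difference of -0.28 (SE 0.23). The other kept probe sets differed by -0.18 (1436326_at), -0.07 (1436325_at), -0.05 (1420583_a_at) and 0.11 (1458129_at), so the probe sets of Rora did not all have the same sign. Of the 6, 1436326_at had its highest value, 8.45, in OC1-KO embryo 3, where 1424034_at had its lowest. Without OC1-KO embryo 3 the difference of 1424034_at was 0.07 in place of -0.19. Rora lies on chromosome 9, as does Onecut1, with 37 protein-coding genes between them, and an effect of strain sequence carried along with the targeted allele cannot be told apart from one of the genotype.

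Rorb encodes the related receptor that is needed for rod fate and is strongly expressed in retinal progenitors. Its 3 probe sets were all kept. The brightest, 1455799_at, read 12.61, 12.59 and 13.39 in WT and 12.92, 12.14 and 13.06 in OC1-KO, with a difference of -0.16 (SE 0.32). The lowest and the second highest of the 6 values were both OC1-KO arrays, and the sign turned without WT embryo 3 (0.10) or without OC1-KO embryo 2 (0.12). Probe set 1439862_at, at 11.60, 12.16 and 12.08 in WT and 11.52, 12.05 and 11.89 in OC1-KO, was lower in each pair by 0.09, 0.11 and 0.19. This was a small offset beside the spread between numbers. Its difference of -0.13 had an SE of 0.22 without the replicate block and of 0.11 with it, where the unadjusted limma p was 0.280. On 1425162_at the difference was 0.03 (SE 0.16).

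Nr2e1, also known as Tlx, encodes an orphan repressor that holds progenitors in the cell cycle, and both of its probe sets were kept. Probe set 1434921_at read 10.31, 10.33 and 9.95 in WT and 9.90, 10.18 and 10.03 in OC1-KO, with a difference of -0.16 (SE 0.17). Probe set 1457289_at read 9.07, 8.48 and 10.53 in WT and 9.52, 8.11 and 9.89 in OC1-KO, with a difference of -0.18 and an SE of 0.63, the largest SE of the kept receptor probe sets. Its 6 values spanned 2.41, against 0.43 for 1434921_at. The probe sets also disagreed on the order of the embryos: WT embryo 3 was the highest array on 1457289_at and the lowest of the WT arrays on 1434921_at.

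The COUP factors Nr2f1 and Nr2f2 encode close relatives that mostly act as repressors, in overlapping parts of the optic cup and stalk. Nr2f1 1418157_at read 11.84, 12.17 and 12.42 in WT and 11.86, 11.89 and 12.40 in OC1-KO. Embryos 1 and 3 were nearly equal between genotypes, with pair differences of 0.02 and -0.01, and pair 2 differed by -0.29. The mean difference was -0.09 (SE 0.23, 95% interval -0.63 to 0.44).

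Nr2f2 held the 2 largest mean differences of the kept receptor probe sets, and each of the 4 that passed the filter had a lower mean in OC1-KO, by 0.36, 0.36, 0.25 and 0.14. The brightest, 1416159_at, read 10.42, 10.14 and 10.26 in WT and 9.76, 9.74 and 10.25 in OC1-KO. Embryos 1 and 2 of OC1-KO lay below all 3 WT embryos and embryo 3 lay among them. The difference was -0.36 (SE 0.19, 95% interval -0.81 to 0.10), a fold of 0.781, with an exact permutation p of 0.2 and an unadjusted limma p of 0.105. The pairs differed by -0.66, -0.40 and -0.01, so the difference was in pairs 1 and 2. Without OC1-KO embryo 3 it was -0.52 with an unadjusted limma p of 0.0203, in a setting where 1.81% of all kept probe sets were under 0.05. Without both arrays numbered 3 it was -0.53 with an unadjusted limma p of 0.0338, where 1.91% were. The adjusted p was 1.00 in each case. Those arrays are the ones that held the lens, red blood cell and mesenchyme signal, and the part of that tissue in the Nr2f2 values was not tested.

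The other Nr2f2 probe sets had a wider spread. Probe set 1416158_at read 8.57, 9.14 and 8.91 in WT and 7.92, 9.01 and 8.62 in OC1-KO, and was lower within pairs by 0.65, 0.13 and 0.29. On 1416160_at and 1436475_at OC1-KO was lower in pairs 1 and 2, by 0.50 and 0.26 on the first and by 0.51 and 0.32 on the second, and higher in pair 3 by 0.33 and 0.07. OC1-KO embryo 1 was the lowest array on these 3 probe sets, at 7.92, 7.73 and 7.55. Without it the mean differences of 1416160_at and 1436475_at turned to 0.17 and 0.01, and that of 1416158_at went from -0.36 to -0.06, with an unadjusted limma p of 0.814. The 2 probe sets below the filter differed in opposite directions, by 0.30 (SE 0.30) on 1444229_at and by -1.13 (SE 0.77) on 1431237_at.

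**Figure D3:**
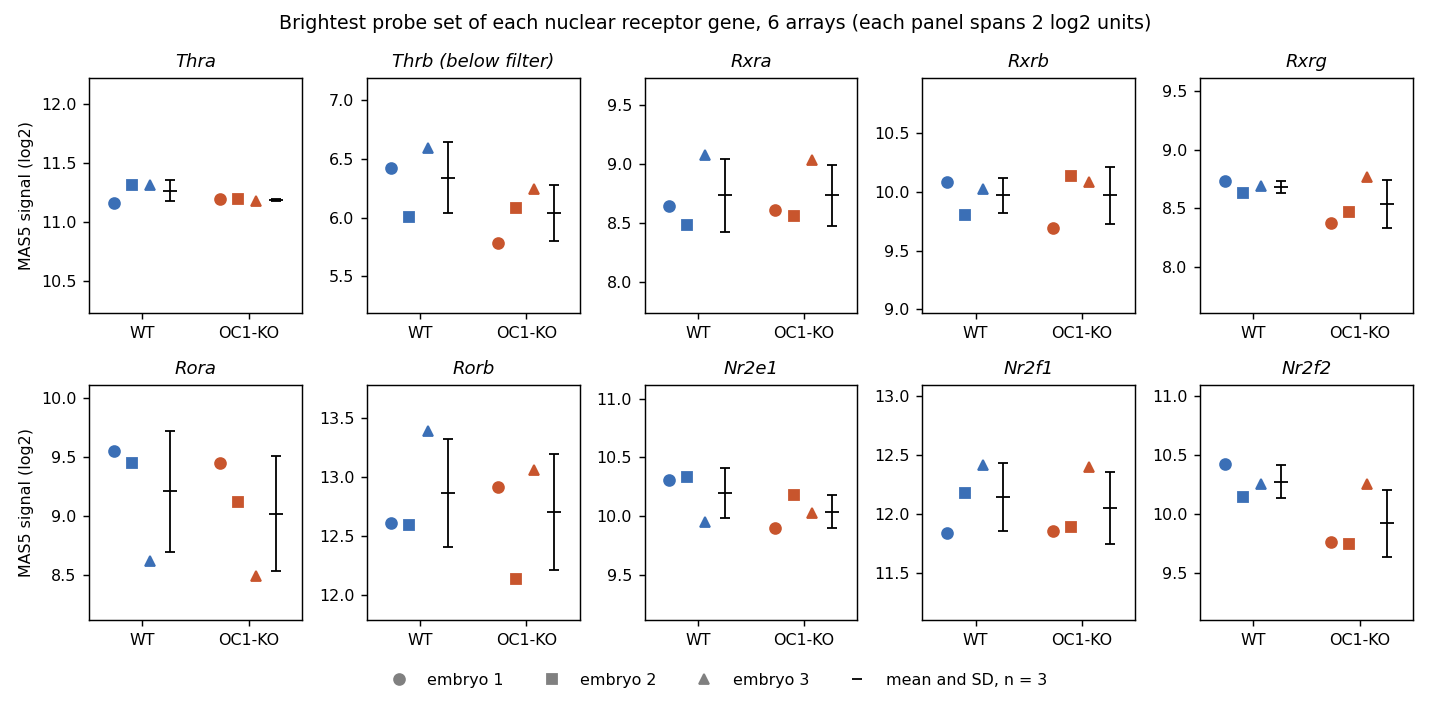
Log2 MAS5 signal of the brightest probe set of each receptor gene on the 6 arrays, WT in blue and OC1-KO in orange, with the mean and SD of 3 arrays beside them; circles, squares and triangles are embryos 1, 2 and 3. Each panel spans 2 log2 units around its own centre, and levels are not comparable between panels. The genotypes overlap in all 10 panels, and in Rxra, Rora, Rorb and Nr2f1 the triangles of both genotypes lie beyond the other 4 arrays on the same side.

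By embryo number, the receptors differed more than by genotype, as did the array as a whole. In a limma F test of the number, fitted beside genotype, 11 of the 23 kept receptor probe sets had an unadjusted p under 0.05, against 31.9% of all kept probe sets, and 2 had an adjusted p under 0.05, against 5.32%. The median share of a receptor probe set's variance was 68.7% between numbers and 4.16% between genotypes, and the share between numbers over all kept probe sets was 70.1%. Number has more levels than genotype, so its share is the larger in noise alone and these shares are not directly comparable. The 11 were Rxra 1454773_at, 3 probe sets of Rora (1424034_at, 1455165_at and 1436325_at), 2 of Rorb (1455799_at and 1439862_at), Nr2e1 1457289_at, Nr2f1 1418157_at, and 3 of Nr2f2 (1416158_at, 1416160_at and 1436475_at). None of the 3 Thra probe sets, nor those of Rxrb and Rxrg, was among them.

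The 2 probe sets past the adjusted threshold were Rora 1424034_at and Nr2e1 1457289_at. The mean signal of Rora 1424034_at was 9.50 on the arrays numbered 1, 9.29 on those numbered 2 and 8.56 on those numbered 3, and the F test gave an adjusted p of 0.0461. That of Nr2e1 1457289_at was 9.30, 8.30 and 10.21, a range of 1.91, with an adjusted p of 0.0479. The other probe sets of these genes did not all have that order: Rora 1436326_at (7.35 at number 2 and 8.12 at number 3) and 1420583_a_at (8.15, 8.28 and 8.35) were highest at number 3, and Nr2e1 1434921_at (10.10, 10.26 and 9.99) was highest at number 2 and lowest at number 3. With the mean of each gene's kept probe sets, the unadjusted limma p of the number was 0.108 for Rora and 0.00629 for Nr2e1, with an adjusted p of 0.0660 for the latter. Neither call was robust: across the alternatives the adjusted p ran from 0.0101 to 0.361 for Rora and from 0.00471 to 0.359 for Nr2e1, and leaving out any one array took Rora past 0.05 (0.0577 to 0.179), as leaving out any array but WT embryo 1 did for Nr2e1 (0.0524 to 0.167).

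Both arrays numbered 3 lay outside the other 4 arrays in 8 of the 23 probe sets, 4 below and 4 above, against 38.4% of all kept probe sets. Those below were Thra 1443952_at and Rora 1424034_at, 1455165_at and 1436325_at, and Rora 1424035_at and 1441085_at did the same from under the filter, at 4.26 and 3.73 on the first and 3.66 and 2.35 on the second. Those above were Rxra 1454773_at, Rorb 1455799_at, Nr2e1 1457289_at and Nr2f1 1418157_at. For Nr2f1 the mean signal was 11.85, 12.03 and 12.41 at numbers 1, 2 and 3, and for Rorb 1455799_at 12.76, 12.37 and 13.23. On the Nr2f2 probe sets 1416158_at, 1416160_at and 1436475_at the lowest mean was at number 1 instead, at 8.24, 7.98 and 7.80, against 9.08, 8.52 and 8.47 at number 2. The lens, red blood cell and mesenchyme markers were high on the same arrays numbered 3, and their part in these differences was not tested.

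**Figure D4:**
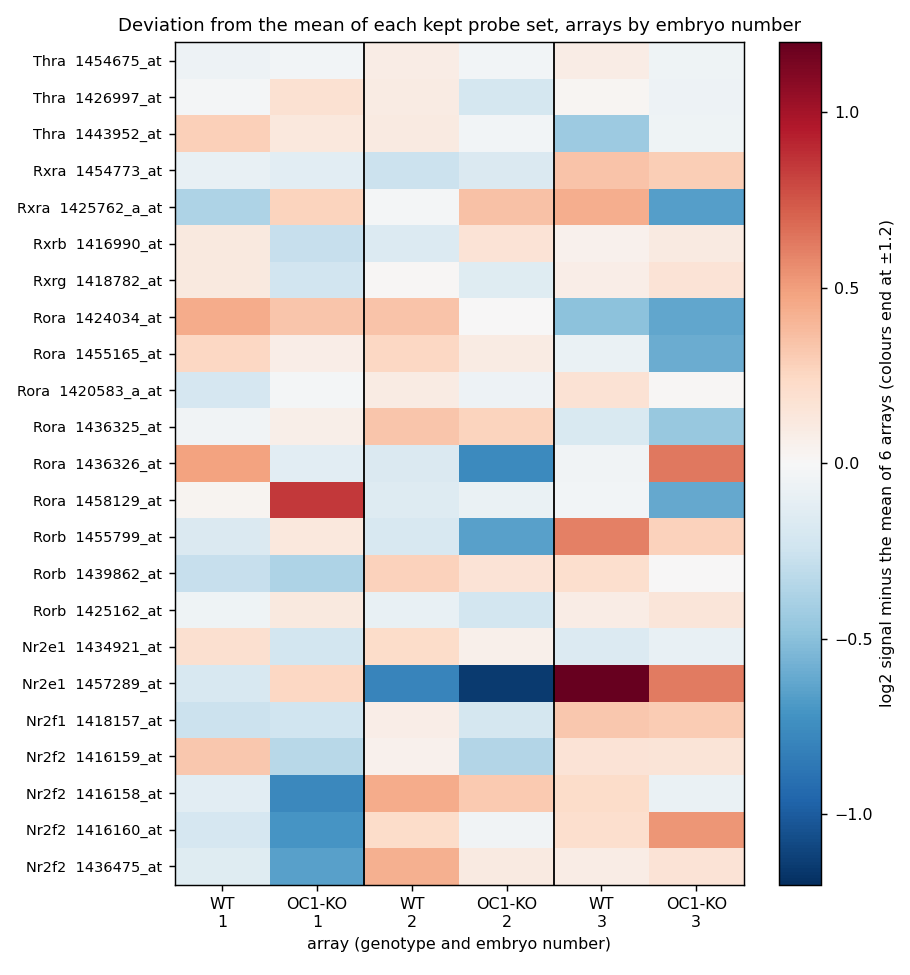
Deviation of each of the 23 kept receptor probe sets from its mean over the 6 arrays, in log2 MAS5 signal, with the arrays ordered by embryo number and colours ending at 1.2 on either side of 0. Blue is below the mean and red above it. The median row has 68.7% of its variance between numbers and 4.16% between genotypes, and the Rora rows 1424034_at, 1455165_at and 1436325_at are blue and Rxra 1454773_at, Rorb 1455799_at, Nr2e1 1457289_at and Nr2f1 red on the arrays numbered 3.

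Among the other nuclear receptors, 13 of the 34 genes with a probe set of their own were above the filter, 6 higher and 7 lower in OC1-KO, with a median difference of -0.02 against -0.00 over all 10529 genes. Of these 13 genes, 1 passed the unadjusted threshold, where 1.01% of all kept probe sets did. This was Esrra, an orphan receptor that drives mitochondrial genes, which read 7.91, 8.31 and 8.38 in WT and 7.64, 7.62 and 7.93 in OC1-KO. The difference was -0.47 (SE 0.19) with an unadjusted limma p of 0.0406, an adjusted p of 1.00 and an exact permutation p of 0.2, and OC1-KO was lower in 3 of 3 pairs. In several settings the p rose to between 0.0507 and 0.124. These were no filter, quantile normalization, median centring, an intensity trend, the methods' t-test and embryos 1 and 2 alone. Leaving out any of 4 single arrays (WT embryo 2 or 3, OC1-KO embryo 1 or 2) did the same. With the replicate block the unadjusted limma p was 0.0138, where 4.37% of all kept probe sets were under 0.05, and the adjusted p was 0.999. The unadjusted limma p was 0.0154 without WT embryo 1 and 0.0287 without OC1-KO embryo 3.

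The genes that supply the ligands or act with the receptors gave 0 calls at an unadjusted limma p under 0.05, against 1.01% of all kept probe sets. Of the thyroid hormone supply list, 3 of 8 genes were above the filter, 1 higher and 2 lower, with a median of -0.01. The amino acid and thyroid hormone transporter Slc7a5 differed by -0.01 and the thyroid hormone-binding protein Crym by -0.04. The third was Ttr, a carrier of the hormone, at 6.70, 4.55 and 6.90 in WT and 7.46, 7.63 and 6.77 in OC1-KO, a difference of 1.24 (SE 0.62) with an unadjusted limma p of 0.0849. Ttr is also on the pigment epithelium list, whose summed signal was higher in OC1-KO in each pair. That sum includes the signal of Ttr. Ttr itself was higher in pairs 1 and 2, by 0.76 and 3.08. It was lower by 0.12 in pair 3, where the sum was 921 in WT and 2198 in OC1-KO. The part of that tissue in the Ttr values was not tested. Of the retinoic acid supply and clearance list, 8 of 12 genes were above the filter, 4 in each direction, with a median of -0.01. The retinoic acid-binding protein Crabp2 differed by -0.09 and the retinaldehyde dehydrogenase Aldh1a1 by 0.06. Without OC1-KO embryo 3, Crabp1 differed by -0.76 with an unadjusted limma p of 0.00946 and an adjusted p of 0.9997. In that setting 1.81% of all kept probe sets were under 0.05. Over all arrays Crabp1 differed by -0.29 (SE 0.40) with an unadjusted limma p of 0.482, and in pair 3 by 0.71. Aldh1a1 had its highest value, 13.57, in OC1-KO embryo 3 and its lowest, 10.85, in OC1-KO embryo 1, so its OC1-KO arrays spanned all of the WT values.

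All 15 coregulator genes with a probe set were above the filter, 4 higher and 11 lower, with a median of -0.02. The histone demethylase Kdm1a differed by 0.13 and the corepressor subunit Tbl1x by -0.12. Crebbp, a coactivator and acetyltransferase, was the 1 gene of these lists whose genotypes did not overlap, at 11.61 to 11.65 in WT and 11.68 to 11.69 in OC1-KO, a difference of 0.06; it was 1 of 54 list genes above the filter, where 3.56% of all kept probe sets were separated, so the count is no result about coregulators.

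Of the genes of cone and photoreceptor precursors, the cells in which Thrb, Rxrg and Rorb are best known, 8 of 15 were above the filter, 5 higher and 3 lower, with a median of 0.07. Neurod1, a bHLH factor of photoreceptors, differed by 0.11, and Otx2, which sets photoreceptor fate, by 0.04. Without OC1-KO embryo 3, 2 genes of this list had an unadjusted limma p under 0.05, the cone transducin Gnat2 (0.72 higher) and the rod factor Nrl (1.04 higher), where 1.81% of all kept probe sets were called. Over all arrays their differences were 0.10 and 0.52, with unadjusted limma p of 0.854 and 0.330. In pair 3 both went the other way, by -1.01 and -1.22, and all 8 genes of the list were lower in OC1-KO in that pair. Of the dorsoventral and optic stalk list, where the COUP factors act, 7 of 9 genes were above the filter, 3 higher and 4 lower, with a median of -0.09. The ephrin Efnb2 differed by -0.26 and the dorsal T-box factor Tbx2 by -0.09. With the replicate block, 1 gene of this list passed the unadjusted threshold, against 4.37% of all kept probe sets. This was the ventral and temporal factor Foxd1, which differed by -0.40 with an unadjusted limma p of 0.0146. Without OC1-KO embryo 3, Efnb2 (-0.47) and the optic stalk factor Vax1 (0.87) passed the unadjusted threshold, against 1.81% of all kept probe sets. No gene had an adjusted p under 0.05 in any of these settings.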

How the data were processed

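RNA of the retinas of 6 E14 embryos was hybridised to Affymetrix mouse genome arrays, 1 per embryo. The authors extracted it with TRI-Reagent, amplified and labelled it with MessageAmp III, and deposited MAS5 intensity, a linear signal per probe set, made with the affy package of R; each array had been scaled to a 2% trimmed mean of 500, and no MAS5 version is given in the sources used here. MAS5 corrects each probe by its mismatch probe, so low signals vary more between arrays, and no detection calls were used. Log2 was taken with no further scaling. The table held 45101 probe sets, among them 64 controls, which were dropped. The methods' filter, a mean log2 signal above 7 in either genotype, kept 20888. Probe sets below the filter were fitted with all others.

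Genotypes were compared in R 4.3.3 with limma 3.58.1 (eBayes after lmFit, no trend, Benjamini-Hochberg over all kept probe sets), with two-sided exact permutation tests for single probe sets. The fit was tested on simulated data. Embryo number was tested by limma's moderated F test beside genotype. Number was taken to pair the embryos, since deviations from the genotype mean correlated at 0.51 to 0.67 for like numbers and -0.44 to -0.04 for unlike ones. Deviations sum to 0 within a genotype, so positive values for like numbers bring negative ones for unlike numbers on average. The labels state no pairs, and the pairing was taken from these same data. P-values measure only the spread between these embryos, which without the replicate block includes the spread between numbers. Precision is limited by the number of arrays. Median signal was 85.0 to 104.1, and 43.42% to 46.65% of probe sets exceeded log2 7. The 3'/5' log2 ratio ran from 0.45 to 1.11 for Actb and from -0.49 to -0.24 for Gapdh. Both ratios were lowest in OC1-KO embryo 3.

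Gene symbols came from the platform annotation. Named are the 10 receptors by each probe set, Onecut1, Onecut2, the brightest gene of a marker list and, from each pathway list, the genes with an unadjusted p under 0.05 or otherwise the 2 brightest. Crebbp, Cryaa, the pigment epithelium genes with Ttr, and genes given for another setting were chosen after their values were seen. The lists use each gene's brightest kept probe set. Members and lists were chosen with earlier results of these data known. Other marker lists, as summed signals, were 1554 to 2479 (endothelium), 866 to 1191 (macrophages) and 2705 to 4110 (horizontal cells). Alternatives were no filter, quantile normalization, median centring, a floor of 64, an intensity trend, the methods' t-test, a replicate block, embryos 1 and 2 alone, the mean of a gene's probe sets and each array left out. Protein sequences were not used here.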

Additional observations from a re-analysis of the deposited data

How the results depend on the processing

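The count of kept probe sets at an unadjusted p under 0.05 between genotypes, 210 with the main settings, was 1305 with no filter, 121 with an intensity trend, 913 with the replicate block and 398 with embryos 1 and 2 alone; leaving out single arrays gave 175 to 378. For the receptors the count of 0 became 1 with the block and 2 with embryos 1 and 2 alone, and 0 to 1 without single arrays. For embryo number, the counts without single arrays, an alternative added after the data were seen, were 4296 to 6318 over all probe sets in place of 6667, and 2 to 11 over the receptors in place of 11, with the fewest without OC1-KO embryo 2; no filter gave 5 receptors and the mean of each gene's probe sets 2. The 1 call among other nuclear receptors, Esrra, was 0 with no filter, quantile normalization, median centring, a trend, the t-test or embryos 1 and 2 alone, and 0 to 1 without single arrays. Thyroid hormone supply had 1 with the floor of 64 or embryos 1 and 2 alone, retinoic acid supply 1 with embryos 1 and 2 alone, and both 0 to 1 without single arrays. Coregulators had 1 by the t-test, and 0 without any single array. Cone and photoreceptor genes had 2 with embryos 1 and 2 alone and 0 to 2 without single arrays, and dorsoventral genes 1 with the block, 2 with embryos 1 and 2 alone and 0 to 2 without single arrays. The replicate block moved no other of these counts. The sign of a mean difference turned for Rxra to -0.0140 with the mean of its probe sets and for Rxrb to 0.00386 after quantile normalization and 0.0104 after median centring. Without single arrays the difference ran from -0.149 to 0.172 for Rxra, -0.0857 to 0.136 for Rxrb, -0.486 to 0.0742 for Rora, -0.340 to 0.120 for Rorb, -0.271 to 0.0417 for Nr2f1, -0.446 to 0.173 for Nr2f2 1416160_at and -0.395 to 0.0105 for Nr2f2 1436475_at. It stayed below 0 under each of these leave-outs for Thra (-0.128 to -0.0513), Thrb (-0.469 to -0.175), Rxrg (-0.262 to -0.0649), Nr2e1 (-0.284 to -0.0920) and the Nr2f2 probe sets 1416159_at (-0.522 to -0.267) and 1416158_at (-0.605 to -0.0599), of which the last was nearest 0 without OC1-KO embryo 1. Where counts moved with a setting, the cause was not tested. With 3 arrays per genotype, the 95% intervals of the kept receptor probe sets reach 0.320 to 1.496 on either side of the difference without the block. Their SE was 0.107 to 0.351 with it (median 0.140), against a median of 0.225 without.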
